A study of Mus musculus with 29 samples.

Results

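Vehicle-treated 3T3-L1 cells were compared between day 7 (mature adipocytes, 4 samples) and day 0 (preadipocytes, 3 samples), 7 of the 29 RNA-seq samples of the series, over all 11959 genes of the deposited count table. Samples were taken by their labels alone. 3T3-L1 is an established line of mouse embryonic fibroblasts that turns into fat-storing cells in culture, so the comparison describes 1 line and not adipose tissue. No gene was altered in these cells. All 7 samples received the solvent DMSO for the 2 days between confluence and day 0, as the control for KDM5-C70, an inhibitor of the KDM5 histone demethylases that the other treatment arm received at 10 µM. Day 0 cells were confluent and stood in preadipocyte medium with calf serum. Day 7 cells had spent 2 days in a medium with dexamethasone, insulin, isobutylmethylxanthine and a PPARγ agonist, and the days after that in an adipocyte medium with insulin and dexamethasone. Medium, time in culture and stage therefore changed together and cannot be told apart. The labels give the cell type of both groups as adipocyte, and they number the replicates without saying that these came from separate cultures. P values then measure only the spread between these samples, which may be technical.

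Adipogenesis proceeds through a cascade of transcription factors. CEBPB and CEBPD respond first to the hormones of the induction medium, PPARG and CEBPA follow and sustain each other, and together they switch on genes for fatty acid uptake, triglyceride storage, lipolysis, insulin response and hormone secretion. Confluent 3T3-L1 cells re-enter the cell cycle after induction before they leave it for good, and they replace a fibrous matrix and a contractile cytoskeleton with the rounded form of a fat cell.

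Total counts per sample were 18504079 to 23795108 at day 0 and 18781225 to 21433580 at day 7. Levels are given as CPM, the counts a gene takes of 1000000 in its library, after scaling by the trimmed mean of M values (TMM), with factors of 1.035 to 1.043 at day 0 and 0.9149 to 0.9526 at day 7. Values of single samples stand in the order of the replicates, the 3 of day 0 before the 4 of day 7, and a gene that rose or fell by a plain number did so on the log2 scale. Gene coordinates are those of GENCODE M21 on GRCm38 and span the whole gene. Day 7 replicate 1 stood apart from the other day 7 samples. Its counts differed from theirs by a chi-square per degree of freedom of 40.3 to 47.2, against 2.67 to 10.8 among the other day 7 samples and 3.85 to 5.47 among day 0 samples. The counts called in the gene lists were therefore also taken without it. Of 50 lists with 5 or more measured genes, 35 kept their counts, 14 moved by 1 or 2 genes, and the cytosolic ribosomal list moved by 11. Every gene of the table had over 1 CPM in at least 20 of the 29 samples, so a gene used only at day 7 or only at day 0 could not be in it. Genes outside the table, among them Lep, Ucp1 and Adrb3, were not analysed here.

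Most genes of the table differed between preadipocytes and mature adipocytes. A change was called where the adjusted p of edgeR's quasi-likelihood test was under 0.05 and the log2 fold change past 0.32 in either direction. By this rule 4394 genes (36.7% of those tested) were higher at day 7 and 4391 (36.7%) were lower, 73.5% in all. The median log2 fold change of all genes was 0.0083. Of the 3174 genes not called, 1410 had an adjusted p under 0.05 but a smaller fold change. The groups did not overlap for 9530 genes (79.7%). Counts over gene lists are to be read against these shares. Without day 7 replicate 1, 8497 of the called genes kept their call and 0 were called in the other direction. In a principal component analysis of the 7 samples the first component held 95.9% of the variance and separated the days. The second held 2.23%, and day 7 replicate 1 lay farthest out on it.

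Falls outnumbered rises among changes of moderate size, and rises outnumbered falls among the largest. A fold change over 4 was called for 799 higher and 1122 lower genes, and a fold change over 64 for 80 higher and 25 lower genes. The 10 most abundant genes of each sample took 9.88%, 10.2% and 10.3% of its counts at day 0 and 13.1%, 12.2%, 11.99% and 11.6% at day 7, a difference of 2.12 percentage points. The groups did not overlap, and an exact two-sided permutation test of the 7 samples, which doubles the smaller tail over 35 arrangements, gave p = 0.0571. This is the smallest p it can give, so it could not pass 0.05.

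Among the genes with the most counts, matrix genes stood high at day 0 and lipid genes at day 7, an order that depends on gene length. At day 0 the 5 genes with the most counts were the collagen chain gene Col1a2 (1.81% of counts), the lincRNA gene Gm42418 (1.70%), the fibronectin gene Fn1 (1.61%), Col1a1 (1.11%) and mt-Co1 (0.894%), a cytochrome c oxidase subunit gene of mitochondrial DNA. At day 7 they were Scd1 (2.87%), which encodes a desaturase that makes oleate, Gm42418 (2.08%), mt-Co1 (1.58%), the lipoprotein lipase gene Lpl (1.09%) and mt-Cytb (1.08%). Scd1 held 0.0219% of counts at day 0, and Col1a2 held 0.129% at day 7. Gm42418 was not called: it had 15676, 15090 and 18284 CPM at day 0 and 35654, 20655, 18943 and 13565 CPM at day 7, with replicate 1 the highest and replicate 4 the lowest of all 7 samples. Per kilobase of exon the order was different, with Gm42418 and mt-Co1 first and second on both days, Scd1 in place 5 and Lpl in place 26 at day 7, and Col1a1 in place 11 and Col1a2 in place 13 at day 0.

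Markers of both cell states moved as the stage names say. Of 10 adipocyte markers 9 were in the table (Lep was not), and all 9 were higher in each day 7 sample than in any day 0 sample. Adiponectin, the insulin-sensitizing hormone of fat cells (Adipoq, chr16:23146536-23158028), stood at 0.403, 0.260 and 0.186 CPM at day 0 and at 1620, 1286, 1225 and 1228 CPM at day 7. Fabp4, the fatty acid carrier of the adipocyte cytoplasm, stood at 50.8, 49.6 and 51.3 CPM and 7279, 5629, 5484 and 5200 CPM. Perilipin 1, the coat protein that guards the lipid droplet (Plin1), stood at 0.443, 0.312 and 0.186 CPM and 749, 754, 727 and 751 CPM. All 3 genes were higher in every day 7 sample than in any day 0 sample, and Adipoq and Plin1 stood below 1 CPM throughout day 0.

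All 9 markers of fibroblasts and preadipocytes chosen for this check were lower in each day 7 sample than in any day 0 sample, against 79.7% of all genes with no overlap in either direction. Dlk1 (also called Pref-1), a surface protein that holds preadipocytes undifferentiated, had 2579, 2666 and 2470 CPM at day 0 and 249, 157, 170.4 and 233 CPM at day 7, a log2 change of -3.67 (SE 0.097, adjusted p = 3.9e-25). Thy1, a fibroblast surface antigen, fell from 255 ± 24.3 (SD, n = 3) to 21.3 ± 7.76 CPM (SD, n = 4). Over a longer list of 20 measured fibroblast and preadipocyte genes all 20 fell, with a median log2 change of -2.31, and their summed level passed from 42140 to 43050 CPM at day 0 to 4401 to 5831 CPM at day 7. None reached 0. In bulk samples, fewer cells of a type and less RNA per cell cannot be told apart.

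**Figure D1:**
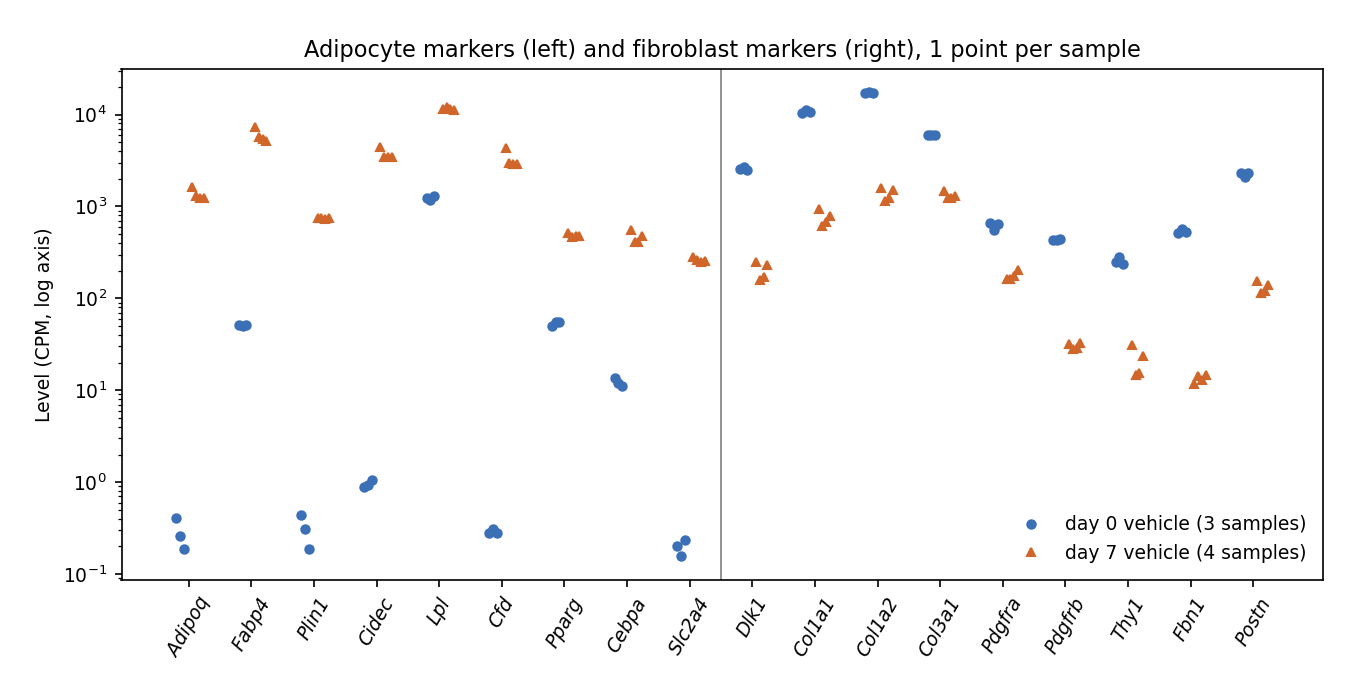
Levels (CPM, log axis) of the 9 adipocyte markers and the 9 fibroblast and preadipocyte markers, 1 point per sample, circles for day 0 vehicle (3 samples) and triangles for day 7 vehicle (4 samples). The groups do not overlap for any of the 18 genes, and Adipoq passes from under 1 CPM to 1225 CPM or more.

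Markers of other lineages were scarce in the table. It held 5 of 20 brown and beige adipocyte markers, 2 of 15 skeletal muscle, 4 of 15 bone and cartilage, 2 of 14 leukocyte, 1 of 10 endothelial and 0 of 10 epithelial markers, and their defining genes (Ucp1, Myod1, Bglap, Ptprc, Pecam1, Epcam) were not analysed here. The summed level of the 4 bone and cartilage genes was 1435 to 1540 CPM at day 0 and 72.04 to 84.9 CPM at day 7, that of the 2 muscle genes 13.2 to 14.3 and 46.7 to 55.9 CPM, and that of the 2 leukocyte genes 7.82 to 8.91 and 4.39 to 6.34 CPM. Flt1, the 1 endothelial gene, was at 30.1 to 40.95 and 16.5 to 18.4 CPM. Within these lists the calls differed. Of the 2 muscle genes 1 was called higher and 1 lower, and the same held for the 2 leukocyte genes. Of the 4 bone and cartilage genes 1 was called higher and 3 lower. The part of such cells in the results was not tested. Of the 5 brown and beige genes Kcnk3, a potassium channel gene, rose from 68.4 ± 4.37 (SD, n = 3) to 498 ± 36.98 CPM (SD, n = 4), Gk and Pdk4 rose, Ppargc1a fell and Ebf2 was not called. Spp1, the osteopontin gene of bone and of many activated fibroblasts, fell from 1292 ± 68.8 (SD, n = 3) to 32.2 ± 3.74 CPM (SD, n = 4).

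The largest rises, by the fitted change among genes above the median level, included those of Mc5r, Cfd, Map7d2, Adipoq, Cidec, Thrsp, Retn, Fam107a, Plin1, Hp and Mrap. Mc5r, a melanocortin receptor gene whose product drives lipolysis in adipocytes, had 0 counts in all 3 day 0 samples and 113, 156, 148 and 125 CPM at day 7. Against a floor of 3 counts over the group its level was at least 2970-fold higher. Mrap, the partner protein that carries a melanocortin receptor to the cell surface, stood at 0.322, 0.104 and 0.0464 CPM and 410.1, 316, 302 and 314 CPM. Both genes belong to the response of fat cells to melanocortin peptides.

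Cfd (chr10:79890853-79892655) encodes adipsin, the complement factor D that adipocytes secrete. It stood at 0.282, 0.312 and 0.279 CPM at day 0 and 4274, 2968, 2908 and 2918 CPM at day 7, a log2 change of 13.43 (SE 0.20, adjusted p = 2.6e-31). Day 7 replicate 1 was the highest, and without it the log2 change was 13.28. Retn, the gene of the secreted protein resistin, had 0.282, 0.104 and 0 CPM and 553, 374, 393 and 394 CPM. Hp, the gene of the haemoglobin carrier haptoglobin, which fat cells share with liver, rose from 4.39 ± 0.870 (SD, n = 3) to 8689 ± 1640 CPM (SD, n = 4). Cidec (chr6:113424634-113435760), whose product fuses lipid droplets into larger ones, had 0.886, 0.935 and 1.07 CPM at day 0 and 4385, 3489, 3433 and 3412 CPM at day 7. Thrsp, a nuclear protein of lipogenic tissues, stood at 0.242, 0.208 and 0.232 CPM and 885, 686, 656 and 659.8 CPM. In Cfd, Retn, Cidec and Thrsp alike the highest sample was day 7 replicate 1, while the other 3 day 7 samples lay near each other. Hp was also highest in replicate 1, but its other day 7 samples lay farther apart.

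Some leading genes are less tied to fat storage. Map7d2, a microtubule-associated protein, had 3 counts over the day 0 samples and 244, 241, 257 and 230.3 CPM at day 7, a ratio of 5320 with a 95% counting interval of 1820 to 25800. Fam107a, an actin-associated protein that glucocorticoids induce, stood at 0.121, 0 and 0.0464 CPM and 179.7, 171, 179 and 178 CPM. Both genes were even among the day 7 samples, replicate 1 included. The interval covers counting error alone. Of the 24 leading genes in both directions 7 overlap a gene on the opposite strand, as do 109 of the 259 genes named in the text. The libraries were strand-specific, but whether counting used the strand is not given in the sources used here.

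**Figure D2:**
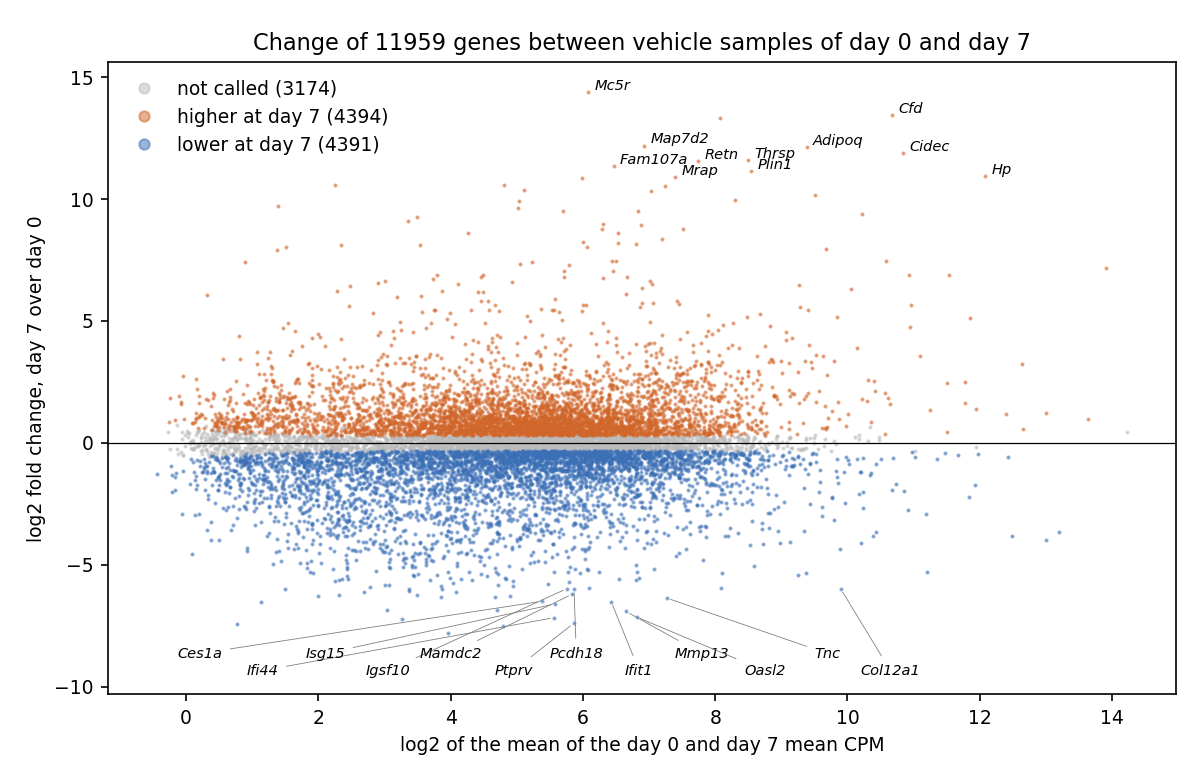
Log2 fold change of day 7 over day 0 for all 11959 genes against the log2 of the mean of the group means (CPM), coloured by call (4394 higher, 4391 lower, 3174 not called) and with leading rises and falls named. The largest rises pass 10 on the log2 scale and the named falls lie between -5.97 and -7.40. Mc5r and Map7d2 are drawn at fitted values that depend on edgeR's default prior count.

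The 12 largest falls among genes above the median level were Ptprv, Ifi44, Oasl2, Mmp13, Isg15, Ifit1, Ces1a, Tnc, Mamdc2, Col12a1, Igsf10 and Pcdh18. Ptprv, a receptor-type tyrosine phosphatase gene, fell from 114, 114 and 118 CPM to 0.582, 0.733, 0.784 and 0.603 CPM (168-fold lower, adjusted p = 4.14e-31). Tnc (chr4:63959785-64047015), the gene of tenascin C, a matrix glycoprotein of growing and healing tissue, fell from 297, 313 and 302 CPM to 3.259, 4.56, 2.60 and 4.49 CPM. Mmp13, collagenase 3, fell from 233, 147 and 217 CPM to 0.931, 1.86, 1.57 and 2.25 CPM. Col12a1, a collagen that bridges fibrils, fell from 1882, 1772 and 1977 CPM to 28.6, 28.5, 31.6 and 30.6 CPM. These 4 genes were 62.9- to 168-fold lower at day 7. Ifi44, Oasl2, Isg15 and Ifit1 are interferon-stimulated genes and are described with that group. Ces1a is one of several closely related carboxylesterase genes, among which reads can be shared, and Mamdc2, Igsf10 and Pcdh18 encode secreted or cell surface proteins.

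Among the adipogenic transcription factors 14 of 21 measured genes rose, 5 fell and 2 were not called, against 36.7% of all genes called in each direction, with a median log2 change of 1.13. Pparg, the nuclear receptor that commands the adipocyte programme, stood at 50.4, 54.8 and 54.97 CPM at day 0 and at 516, 465, 473 and 481 CPM at day 7, 9.06-fold higher (adjusted p = 6.29e-29). Cebpa, its partner, stood at 13.5, 11.9 and 11.1 CPM and 549, 412, 406 and 479 CPM, 37.8-fold higher. Klf15, a zinc finger factor that glucocorticoids induce in fat, changed most, with 0.443, 0.624 and 0.464 CPM and 146, 128, 132 and 127 CPM. The early factors Cebpb and Cebpd were also above their day 0 level, by 1.03 and 2.42 on the log2 scale. The sterol-sensing receptor Nr1h3 (LXRα) rose by 4.53 and the lipogenic factor Srebf1 by 1.80. Of other Krüppel-like factors Klf4 fell by 1.53 and Klf5 by 1.27, while the preadipocyte factors Ebf2 and Zfp423 had log2 changes of -0.29 and -0.28 and were not called, although their calls changed in 9 and 4 of the alternative settings.

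Genes that restrain adipogenesis were mostly lower, with 14 of 20 down, 5 up and a median log2 change of -0.76. Beside Dlk1 the larger falls were those of the Wnt ligand gene Wnt6 (log2 change -3.37), Zfp521 (-3.282), which blocks early commitment, Wnt5a (-2.11) and the nuclear receptor gene Nr2f2 (-1.86). Some of the exceptions also work in mature fat cells. Irf4, which controls lipolysis genes in fasting, rose from 0.125 ± 0.0808 (SD, n = 3) to 11.1 ± 1.55 CPM (SD, n = 4). Foxo1, the factor that insulin excludes from the nucleus, rose from 17.5 ± 0.213 (SD, n = 3) to 129.7 ± 11.6 CPM (SD, n = 4). Id1 and Irf3 rose by 1.41 and 1.11, and Tcf7l1 by 0.34, a call lost in 7 of the alternative settings.

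All 25 measured genes of a list of textbook PPARG targets rose, with a median log2 change of 4.47, against 36.7% of all genes called higher. Their changes ran from 1.04 for Hilpda to 13.43 for Cfd. The list shares members with the marker and lipid lists, so it is no separate evidence. With its RXR partner PPARG binds a direct repeat (DR1, AGGTCANAGGTCA on either strand). The letters of this repeat stood in 0 of 24 promoter windows, which cover 18 of the 25 genes, and in 0.0396% of all windows. This says only that these letters are not in these windows.

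Genes of fatty acid capture were mostly higher. Of 17 genes of uptake and binding 13 rose, 3 fell and 1 was not called. Cd36, the membrane transporter of long-chain fatty acids, stood at 4.31, 3.53 and 2.79 CPM at day 0 and 2338, 2510, 2442 and 2243 CPM at day 7. Lpl, the secreted lipase that frees fatty acids from lipoproteins, was already at 1250, 1170 and 1291 CPM at day 0 and reached 11540, 11960, 11589 and 11073 CPM. Acsl1, the adipocyte acyl-CoA synthetase, rose from 32.9 ± 2.07 (SD, n = 3) to 3863 ± 95.2 CPM (SD, n = 4). Its relatives differed from it: Acsl3 rose by 0.74, Acsl5 fell by 0.95 and Acsl4 had a log2 change of -0.21 and was not called. Fabp5, the second carrier of these cells, rose by 3.99.

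De novo fatty acid synthesis rose at 14 of 17 genes, with 2 lower and a median log2 change of 2.49. Fasn, the fatty acid synthase gene, stood at 332, 356 and 337 CPM and 3329, 4578, 4171 and 4088 CPM, 11.8-fold higher. Scd1 (chr19:44394455-44407879) stood at 196, 221 and 216 CPM and 27317, 33301, 30542 and 30658 CPM, 144-fold higher (adjusted p = 1.28e-32). In both genes day 7 replicate 1 was the lowest of the 4. Acly, Acaca and Acacb, the enzymes that make cytosolic acetyl-CoA and malonyl-CoA, rose by 1.247, 1.36 and 2.59, and the citrate carrier gene Slc25a1 by 2.92. Elongases split: Elovl5 rose by 2.76, while Elovl6, which extends palmitate to stearate, fell from 50.6, 53.1 and 54.5 CPM to 5.005, 7.04, 5.54 and 5.70 CPM (9.05-fold lower, adjusted p = 8.67e-24). The desaturase genes split as well, since Scd2 rose by 2.49, Fads1 fell by 0.42 and Fads2 was not called at -0.17.

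Triglyceride assembly rose at 14 of 16 genes, with 1 lower and a median log2 change of 2.74. Gpd1, which makes the glycerol 3-phosphate backbone from glycolysis, stood at 1.37, 0.779 and 1.53 CPM at day 0 and 1547, 1494, 1461 and 1302 CPM at day 7. Dgat2, one of the pair of enzymes that add the last acyl chain, stood at 5.76, 6.75 and 6.96 CPM and 1737, 1571, 1566 and 1611 CPM, 251-fold higher, and the other, Dgat1, rose by 4.09. Agpat2 and Lpin1, which carry the steps between, rose by 4.47 and 4.28. Agpat4 fell by 0.56, and Lpin2, at -0.28, was not called. Within each step the isoforms therefore differed in size and, for Agpat and Lpin genes, in call.

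Of 11 lipid droplet genes 8 rose, 1 fell and 2 were not called. Beside Plin1 and Cidec, Fitm2, which buds droplets from the endoplasmic reticulum, rose by 4.59, Plin4 by 3.277 and Bscl2 (seipin) by 3.25. Of the more broadly expressed coat proteins Plin2 rose by 1.12 and Plin3 fell by 0.87. All 10 measured genes of lipolysis rose, with a median log2 change of 4.79 (3.29 without the 25% of genes of lowest level). Pnpla2 (adipose triglyceride lipase) rose from 26.5 ± 1.62 (SD, n = 3) to 2093 ± 167 CPM (SD, n = 4), and Lipe (hormone-sensitive lipase) rose from 13.5 ± 0.609 (SD, n = 3) to 1214 ± 47.2 CPM (SD, n = 4). G0s2, the inhibitor of the first of these lipases, rose from 0.312 ± 0.0917 (SD, n = 3) to 228 ± 26.1 CPM (SD, n = 4), so lipases and their inhibitor rose together. Pde3b, through which insulin restrains lipolysis, rose by 4.12.

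**Figure D3:**
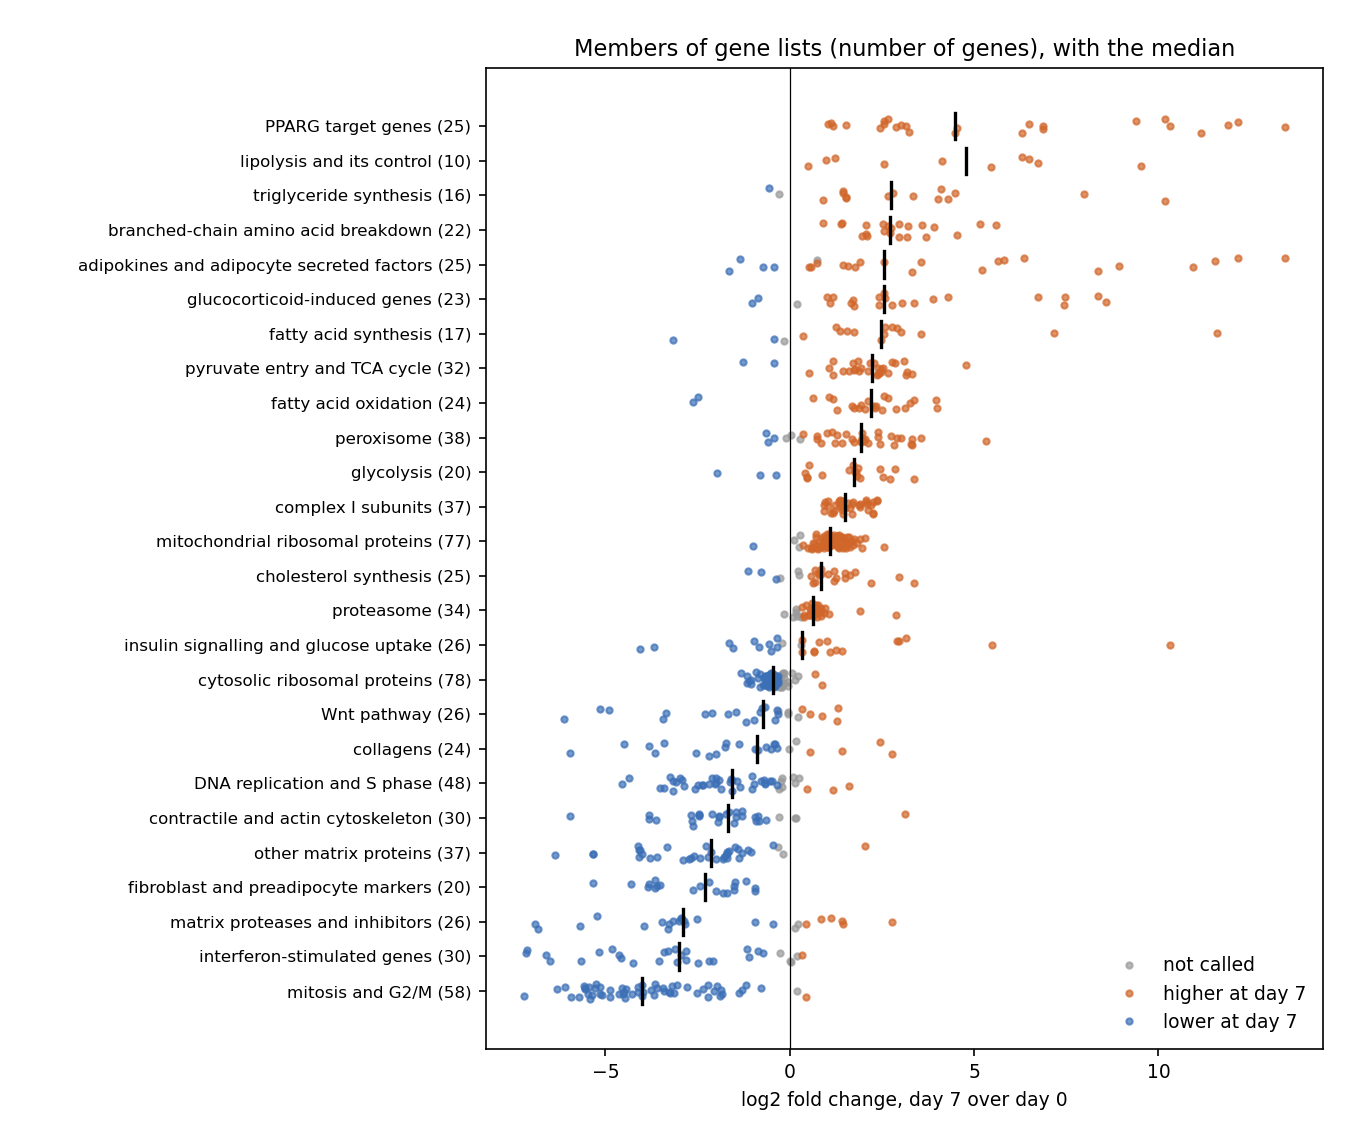
Log2 fold change of day 7 over day 0 for each measured member of 26 gene lists (number of genes in parentheses), coloured by call, with a bar at the list's median. Medians run from 4.79 for lipolysis to -4.01 for mitosis and G2/M, and lists of like direction still hold members of the other sign, such as Elovl6 in fatty acid synthesis and Des in the contractile list.

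Genes of insulin response moved both ways, with 14 of 26 up and 10 down, against 36.7% of all genes in each direction, and a median log2 change of 0.33. Slc2a4 (chr11:69942539-69948188), the insulin-regulated glucose transporter GLUT4, stood at 0.201, 0.156 and 0.232 CPM at day 0 and at 279, 261, 249.7 and 258 CPM at day 7 (adjusted p = 1.15e-29). The widely expressed transporter gene Slc2a1 had a log2 change of 0.29 and was not called. Trarg1 and Tbc1d4, which govern the traffic of GLUT4 vesicles, rose by 5.49 and 2.95, and the insulin receptor gene Insr by 1.41. Below the receptor the isoforms parted. Akt2 rose by 1.27 and Akt1 fell by 0.83, Irs2 rose by 0.34 (a call lost in 8 of the alternative settings) and Irs1 fell by 0.98, and Tbc1d4 rose while its relative Tbc1d1 fell by 1.65. Enpp1 and Grb14, both inhibitors of the insulin receptor, fell by 4.06 and 3.69.

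Hexokinases parted in the same way. Hk2, the insulin-responsive hexokinase of fat and muscle, stood at 96.5, 97.7 and 103 CPM and 603, 781, 744 and 714 CPM, and Hk1 at 163, 180.4 and 164 CPM and 48.01, 39.1, 38.1 and 47.5 CPM. The first was higher and the second lower in each day 7 sample than in any day 0 sample. In all, 17 of 20 glycolysis genes rose and 3 fell (Hk1, Eno3 and the lactate carrier gene Slc16a1), with a median log2 change of 1.75. Aldoa rose from 901 ± 72.6 (SD, n = 3) to 4912 ± 526 CPM (SD, n = 4) and Ldha by 2.54 on the log2 scale.

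Of 25 adipokines and other secreted factors 20 rose, 4 fell and 1 was not called, with a median log2 change of 2.55. Agt, the angiotensinogen gene, rose from 77.6 ± 7.58 (SD, n = 3) to 3917 ± 429 CPM (SD, n = 4). Rarres2, the gene of the chemoattractant chemerin, rose by 5.80, the lipocalin gene Lcn2 by 8.36, the acute phase gene Orm1 by 8.93 and Nampt by 3.31. The 4 that fell were Fst (follistatin), Igf1, Metrnl and C1qtnf1, by 1.64, 1.35, 0.72 and 0.42. Complement C3, the substrate that adipsin helps to activate, rose from 208 ± 2.20 (SD, n = 3) to 7215 ± 304 CPM (SD, n = 4).

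Breakdown of branched-chain amino acids, a source of acyl groups in fat cells, rose at all 22 measured genes, with a median log2 change of 2.72. Bcat2, the mitochondrial transaminase of the first step, stood at 25.4, 27.1 and 23.8 CPM at day 0 and at 1463, 1133, 1141 and 1153 CPM at day 7, 48.1-fold higher. Bckdha, Bckdhb and Dbt, subunits of the dehydrogenase of the second step, rose by 3.59, 3.70 and 4.54. Aldh6a1, near the end of the valine branch, rose from 49.9 ± 0.723 (SD, n = 3) to 1787 ± 227 CPM (SD, n = 4). The smallest rise was that of Bckdk (0.89), the kinase that switches the dehydrogenase off.

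The citric acid cycle and pyruvate entry rose at 30 of 32 genes and fell at 2 (median log2 change 2.22). Pcx, the pyruvate carboxylase that replenishes oxaloacetate, led the list with 149.5, 133 and 136 CPM and 3574, 4002, 3839 and 3777 CPM, 27.2-fold higher. The pyruvate carrier genes Mpc1 and Mpc2 rose by 3.10 and 2.85. The exceptions were Pdp1 and Pdk3, a phosphatase and a kinase of pyruvate dehydrogenase, which fell by 1.27 and 0.44. Fatty acid oxidation rose at 22 of 24 genes and fell at 2 (median 2.20), with 2 exceptions. Cpt1a, the liver-type gate for fatty acids into mitochondria, fell from 210.5, 197 and 209 CPM to 30.5, 34.6, 33.9 and 33.3 CPM (6.21-fold lower, adjusted p = 1.44e-25), and the thioesterase gene Acot1 fell by 2.48. The next enzyme, Cpt2, rose by 2.87 and Crat, which makes acetylcarnitine, rose from 80.2 ± 3.21 (SD, n = 3) to 1286 ± 52.1 CPM (SD, n = 4). Peroxisomes, which shorten very long fatty acids, rose at 32 of 38 genes and fell at 3 (median 1.93). Among them the membrane channel gene Pxmp2 rose by 5.33 and Cat (catalase) by 3.31, while Agps and Far1, of ether lipid synthesis, fell by 0.64 and 0.59.

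Subunits of oxidative phosphorylation rose almost without exception. Of 78 nuclear-encoded genes 77 rose and 0 fell, with a median log2 change of 1.64, by complex 37 of 37 in complex I, 13 of 13 in complexes II and III, 10 of 11 in complex IV and 17 of 17 in ATP synthase. The 1 not called was Cox7a2l, at 71.7, 67.1 and 67.5 CPM and 97.8, 69.9, 72.8 and 82.1 CPM. Ndufs1, the largest subunit of complex I, rose from 79.3 ± 2.43 (SD, n = 3) to 411 ± 20.5 CPM (SD, n = 4), and Atp5b, the catalytic β subunit of ATP synthase, rose from 593 ± 21.4 (SD, n = 3) to 2459 ± 219 CPM (SD, n = 4). All 7 measured protein genes of mitochondrial DNA rose, with a median of 1.23. Of 77 mitochondrial ribosomal protein genes 73 rose, 1 fell and 3 were not called (median 1.09).

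The size of the nuclear-encoded rise depended on the sample. As a mean log2 level relative to day 0, the 78 subunits stood at 1.92 in day 7 replicate 1 and at 1.48, 1.48 and 1.55 in replicates 2, 3 and 4, while the 3 day 0 samples lay within 0.05 of their mean. Without replicate 1 the median was 1.51 and 76 genes were higher, Atp5g2 losing its call (0.34 with it and 0.29 without it). Genes of mitochondrial DNA did not share this: they stood at 1.20 in replicate 1 and at 1.19, 1.254 and 1.24 in the others. Cytosolic ribosomal protein genes did: they stood at -0.113 in replicate 1 and at -0.643, -0.629 and -0.468 in the others. Of 78 such genes 52 fell, 2 rose and 24 were not called, and without replicate 1 63 fell (median log2 change -0.46 with it and -0.57 without it). Since 59 of these 78 genes have annotated pseudogenes, their counts can be shared with near-identical copies. What sets replicate 1 apart was not tested.

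**Figure D4:**
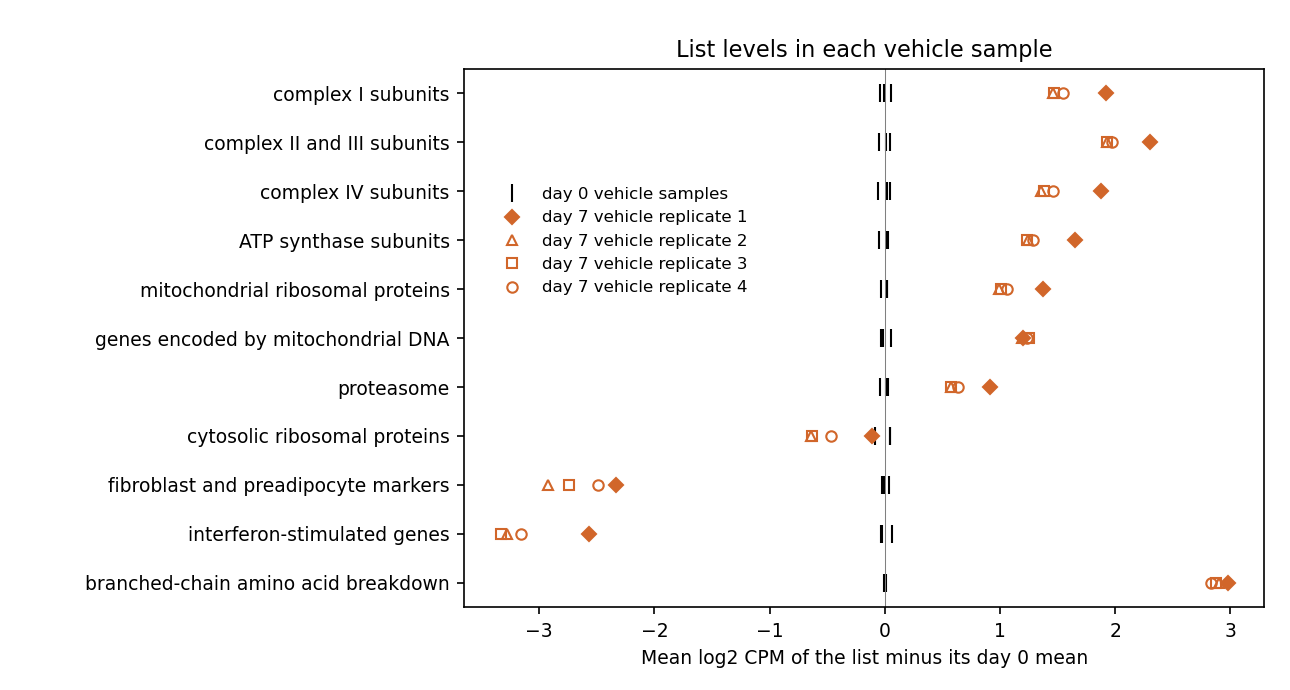
Mean log2 CPM of 11 gene lists in each vehicle sample, relative to the mean of the day 0 samples (bars at 0), with 1 symbol for each day 7 replicate. Replicate 1 (filled) lies above the other day 7 samples for every list drawn except genes of mitochondrial DNA, for which it lies among them.

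Regulators of mitochondrial content split by isoform. Ppargc1b, a PPARG coactivator of mitochondrial genes in white fat, stood at 4.75, 5.09 and 5.01 CPM at day 0 and 20.02, 35.3, 35.7 and 29.2 CPM at day 7. Ppargc1a, its relative in brown fat and muscle, stood at 27.96, 20.4 and 30.1 CPM and 5.88, 9.07, 7.30 and 6.96 CPM. The first was higher and the second lower in each day 7 sample, and replicate 1 was the lowest day 7 sample for both. Their partner Esrra rose by 1.72. Of the 16 measured regulators 11 rose and 4 fell, among the latter Nrf1 (log2 change -0.54), while Tfam, which packs mitochondrial DNA, rose by 0.41.

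Cholesterol synthesis genes rose at 19 of 25, with 3 lower and a median log2 change of 0.84. Cyp51, which demethylates lanosterol, stood at 145, 168 and 158 CPM at day 0 and 1712, 1591, 1624 and 1572 CPM at day 7. Insig1, which holds the sterol sensor in the endoplasmic reticulum, rose by 2.20, while Srebf2, the transcription factor gene of the pathway, fell by 0.77.

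Cell division genes were lower almost throughout. Of 58 genes of mitosis and the G2/M phase 56 fell, 1 rose and 1 was not called, with a median log2 change of -4.01 (-3.39 without the 25% of genes of lowest level). Mki67 (chr7:135689784-135716361), the proliferation antigen Ki-67, stood at 122, 153 and 129 CPM at day 0 and at 2.62, 2.03, 2.11 and 1.97 CPM at day 7 (61.7-fold lower, adjusted p = 5.54e-29). Cenpf, a kinetochore protein, fell from 50.3 ± 4.58 (SD, n = 3) to 0.625 ± 0.181 CPM (SD, n = 4), and Ccna2 (cyclin A2) fell by 5.37 on the log2 scale. The 1 that rose was Bub3 (0.45), and Cks1b (0.21) was not called. Of 48 genes of DNA replication and S phase 38 fell, 3 rose and 7 were not called, with a median of -1.58. Mcm5, a subunit of the replicative helicase, stood at 41.7, 49.5 and 39.8 CPM and 2.39, 1.75, 2.50 and 1.75 CPM. The 3 that rose were Ccne2, Cdc45 and Gins4, which act at the firing of origins. Ccne2, cyclin E2, stood at 4.31, 4.57 and 4.09 CPM and 11.7, 12.7, 14.4 and 13.8 CPM, and Cdc45 at 10.8, 10.8 and 8.36 CPM and 25.7, 20.9, 23.96 and 19.8 CPM, with no overlap between days.

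The promoters of both groups were searched for letters that the choice of members did not use. The windows compared run from 250 bases before to 50 bases after the start site (RefSeq, GRCm38.p6), and a match is a description of the window. A gene can have several windows or none. Those of the mitosis, S phase and branched-chain amino acid lists cover 48, 39 and 18 genes. The cell cycle homology region, TTTGAA on either strand, stood in 69.2% of the 52 windows of mitosis and G2/M genes, in 12.8% of the 47 windows of S phase genes, in 11.9% of the 11494 windows of genes tested and in 17.9% of all 32851 windows. The CCAAT box (CCAAT on either strand) stood in 78.8% of mitosis windows, 55.3% of S phase windows and 38.2% of those of genes tested. It was not particular to genes that fell, since it stood in 68.2% of the 22 windows of branched-chain amino acid genes, a list that rose throughout. An E2F site, TTTCCCGC or TTTGGCGC on either strand, stood in 27.7% of S phase windows, 3.85% of mitosis windows and 2.98% of those of genes tested. None of these motifs contains another. Windows of cyclin B2, CDC20 and CDK1 are printed with TTTGAA and CCAAT in capitals, from 160 bases before to 50 after the start. That of MCM5, over the same span, has only its E2F match in capitals. It also holds CCAAT boxes, which are left in lower case.
Ccnb2, chr9:70421505-70421714, minus strand: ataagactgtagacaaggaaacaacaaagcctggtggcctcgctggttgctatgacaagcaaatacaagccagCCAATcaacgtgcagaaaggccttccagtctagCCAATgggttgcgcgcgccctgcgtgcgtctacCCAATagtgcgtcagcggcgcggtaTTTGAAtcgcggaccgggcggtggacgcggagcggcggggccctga
Cdc20, chr4:118437294-118437503, minus strand: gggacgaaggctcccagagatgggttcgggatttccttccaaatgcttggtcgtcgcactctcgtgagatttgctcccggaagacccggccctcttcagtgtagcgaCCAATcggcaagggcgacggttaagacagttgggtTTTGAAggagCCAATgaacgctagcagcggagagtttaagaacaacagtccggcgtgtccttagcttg
Cdk1, chr10:69352863-69353072, minus strand: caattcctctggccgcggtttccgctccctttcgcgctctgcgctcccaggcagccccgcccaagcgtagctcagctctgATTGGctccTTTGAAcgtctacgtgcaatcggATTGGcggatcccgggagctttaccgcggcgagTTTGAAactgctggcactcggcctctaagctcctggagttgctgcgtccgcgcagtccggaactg
Mcm5, chr8:75109349-75109558, plus strand: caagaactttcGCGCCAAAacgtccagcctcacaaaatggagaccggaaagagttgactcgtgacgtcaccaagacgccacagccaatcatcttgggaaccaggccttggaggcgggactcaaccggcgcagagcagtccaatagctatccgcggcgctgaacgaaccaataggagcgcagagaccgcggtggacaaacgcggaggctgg
In Ccnb2 the TTTGAA match begins 4 bases after the start site and follows 3 evenly spaced CCAAT boxes, at 87, 54 and 21 bases before the start. Cdc20 holds 1 TTTGAA match, 18 bases before the start, between CCAAT boxes at 53 and 8 bases. Cdk1 holds 2, at 71 and 15 bases before the start, each preceded by a CCAAT box on the reverse strand (ATTGG). The E2F match of Mcm5 lies on the reverse strand, 149 bases before the start. Ccnb2 fell from 16.1 ± 0.793 (SD, n = 3) to 0.539 ± 0.183 CPM (SD, n = 4), Cdc20 fell by 3.98 and Cdk1 by 2.21. Ccnb2 has an annotated pseudogene with which reads can be shared.

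Cyclins and inhibitors that act before replication had no common direction, with 7 of 20 up, 7 down and 6 not called, a share close to the 36.7% of all genes called in each direction. Ccnd1 (cyclin D1) fell from 223 ± 9.61 (SD, n = 3) to 35.2 ± 6.87 CPM (SD, n = 4), Ccnd3 rose by 1.17 and Ccnd2, at 0.24, was not called. Among inhibitors of cyclin-dependent kinases Cdkn2c (p18) rose from 59.9 ± 2.46 (SD, n = 3) to 382 ± 35.01 CPM (SD, n = 4), and Cdkn1a (p21) rose by 1.02. Cdkn1b (p27), Cdkn2a and Cdkn2b fell by 1.27, 1.36 and 1.79. Rb1, the retinoblastoma gene that they guard, rose by 1.95.

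Most measured genes of the fibrous matrix fell. Of 24 collagen chain genes 18 fell, 4 rose and 2 were not called. Both chains of type I collagen fell. Col1a1 stood at 10437, 11107 and 10546 CPM at day 0 and 935, 615, 685 and 788 CPM at day 7, and Col1a2 fell by 3.66. Col3a1 fell by 2.20 and Col5a1 by 1.38. The type IV chain genes Col4a1 and Col4a2 fell by 0.51 and 0.39, and Col6a3 fell by 0.44. The 4 that rose were Col7a1 (2.78), whose product anchors basement membranes, Col11a2 (2.45), Col20a1 (1.41) and Col15a1 (0.55). Of 22 genes that process collagen 17 fell, among them the crosslinking enzyme gene Lox by 1.252, and the hydroxylase genes P4ha2 and Plod1 rose by 0.74 and 0.75.

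Of 37 other matrix genes 34 fell, 1 rose and 2 were not called, with a median log2 change of -2.15. Fn1 (chr1:71585520-71653200) stood at 14509, 16460 and 15541 CPM and 818, 975, 1004 and 1081 CPM, 15.99-fold lower. Fbn1, the fibrillin of elastic microfibrils, fell from 537 ± 33.2 (SD, n = 3) to 13.4 ± 1.31 CPM (SD, n = 4), and Postn (periostin) fell by 4.09. The 1 that rose was Prelp, a leucine-rich proteoglycan of basement membranes, by 2.04. Matrix proteases and their inhibitors fell at 18 of 26 genes and rose at 6, with a median of -2.90. Mmp2 and its activator Mmp14 fell by 2.93 and 3.17. The tissue inhibitors parted, since Timp3 fell from 108 ± 11.5 (SD, n = 3) to 2.11 ± 0.407 CPM (SD, n = 4) while Timp4 rose from 1.19 ± 0.0373 (SD, n = 3) to 8.10 ± 0.874 CPM (SD, n = 4).

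Contractile and actin genes fell at 26 of 30, with a median log2 change of -1.69. Acta2, the smooth muscle actin of myofibroblasts, stood at 519, 595 and 492 CPM at day 0 and at 16.1, 5.69, 7.15 and 5.97 CPM at day 7, with replicate 1 the highest of the latter. Tpm1 fell by 3.82, Flna by 2.46 and Vim by 1.93. The 1 that rose was Des (desmin), by 3.12. Of 15 targets of the SRF and YAP factors, which read tension in the cell, 12 fell and 0 rose, Srf itself not being called at -0.18. Of 11 integrin genes 7 fell and 2 rose, against 36.7% of all genes in each direction, with the fibronectin receptor subunit Itga5 down by 1.24 and Itgav by 2.56. The laminin receptor subunits Itga7 and Itga6 went the other way, since Itga7 rose from 5.06 ± 0.239 (SD, n = 3) to 152 ± 8.43 CPM (SD, n = 4) and Itga6 rose from 42.9 ± 4.65 (SD, n = 3) to 430.1 ± 57.5 CPM (SD, n = 4). Caveolae, the membrane pits in which adipocytes are rich, rose at 7 of 9 genes and fell at 1, with Cav1 up by 1.82 and Cavin2 by 4.25.

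Interferon-stimulated genes were lower at day 7, with 25 of 30 down, 1 up and 4 not called, and a median log2 change of -3.01 (-1.19 without the 25% of genes of lowest level). Isg15 (chr4:156199424-156200818), a ubiquitin-like protein, stood at 106, 93.5 and 84.2 CPM at day 0 and at 2.10, 0.564, 0.637 and 0.658 CPM at day 7. Ifit1 (chr19:34640871-34650009), which binds foreign RNA caps, stood at 184, 168 and 158 CPM and 4.89, 1.07, 0.637 and 1.15 CPM. Ifi44 stood at 101, 88.3 and 93.9 CPM and 1.75, 0.169, 0.196 and 0.603 CPM, and Oasl2 at 232, 208 and 229 CPM and 3.08, 1.07, 0.833 and 1.48 CPM. In all 4 genes day 7 replicate 1 was the highest of its group, yet far below every day 0 sample. The list stood at a mean log2 level of -2.57 in replicate 1 and of -3.28, -3.33 and -3.15 in the others. Without replicate 1, 26 genes were lower (median -3.14) and Ifi27, the 1 that rose, lost its call (0.34 with it and 0.18 without it). Stat2 and Irf9, which act just below the interferon receptor, fell by 3.12 and 2.82.

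The core letters of the interferon-stimulated response element, GAAANNGAAA on either strand, stood in 40.7% of the 27 promoter windows of this list, against 2.83% of those of genes tested and 3.44% of all windows. This motif was searched after the falls had been seen. The 27 windows cover 23 genes of the list. The windows of Isg15 and Ifit1 are printed because both fell by over 6 on the log2 scale, with the matches in capitals.
Isg15, chr4:156200769-156200978, minus strand: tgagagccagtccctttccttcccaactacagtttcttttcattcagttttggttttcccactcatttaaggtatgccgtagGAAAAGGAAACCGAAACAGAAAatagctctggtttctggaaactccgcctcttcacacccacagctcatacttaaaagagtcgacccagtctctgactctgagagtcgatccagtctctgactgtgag
Ifit1, chr19:34640729-34640938, plus strand: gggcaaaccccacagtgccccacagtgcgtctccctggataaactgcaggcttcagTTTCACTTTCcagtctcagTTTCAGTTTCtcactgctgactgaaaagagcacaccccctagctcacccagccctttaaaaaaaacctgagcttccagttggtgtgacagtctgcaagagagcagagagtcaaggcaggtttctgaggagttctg
Isg15 holds 3 matches that overlap one another, at 78, 72 and 66 bases before the start. Ifit1 holds 2 on the reverse strand, at 104 and 85 bases before the start.

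Of 26 Wnt pathway genes 17 fell and 5 rose (15 and 4 without day 7 replicate 1), against 36.7% of all genes in each direction, with the secreted modulator Sfrp2 down by 6.12, the receptor gene Fzd1 by 3.45 and Ctnnb1 (β-catenin) by 0.97, while Fzd4 rose by 1.31. Of 37 genes of the TGF-β and BMP pathways 28 fell and 6 rose. Grem1, a BMP antagonist, fell from 1192 ± 36.1 (SD, n = 3) to 28.3 ± 3.53 CPM (SD, n = 4), and Smad3 fell by 1.89. Of 33 growth factors and their receptors 24 fell and 5 rose: Hgf fell by 4.65 and Pdgfra by 1.82, and Vegfa, the angiogenic factor of fat tissue, rose by 1.90.

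Genes that glucocorticoids induce were higher at 20 of 23, with a median log2 change of 2.55, in cells whose medium held dexamethasone. Fkbp5, a chaperone of the glucocorticoid receptor, stood at 145, 149 and 139 CPM at day 0 and at 2111, 2072, 2143 and 2158 CPM at day 7. Glul (glutamine synthetase) rose from 17.3 ± 1.51 (SD, n = 3) to 3051 ± 48.5 CPM (SD, n = 4). Zbtb16 rose by 6.74, Tsc22d3 by 2.77 and Hsd11b1, which activates cortisone within the cell, by 7.45. The receptor gene Nr3c1 fell by 0.87, and Sgk1, a kinase gene that the receptor induces, fell by 1.02. Several members, such as Lpin1, Angptl4 and Lcn2, also belong to the lipid and secreted factor lists, and the part of the medium in these changes was not tested.

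The vehicle samples of days 1 and 2 show when these levels were reached, given here as values with no further test. Mki67 stood at means of 135, 164, 113 and 2.18 CPM on days 0, 1, 2 and 7, and the mean log2 level of the mitosis list, relative to day 0, was 0.25 on day 1, 0.022 on day 2 and -3.70 on day 7. The fall of this list therefore lay after day 2. The interferon list was at -2.79, -3.77 and -3.08 on days 1, 2 and 7, and the contractile list at -1.58, -2.04 and -1.74, so both groups stood low by day 1. PPARG targets stood at 2.74, 4.88 and 5.57, lipolysis genes at 2.25, 3.95 and 4.28, and complex I subunits at 0.43, 1.12 and 1.597. Cholesterol synthesis genes were below day 0 on day 1 and above it later, at -0.99, 0.55 and 0.93. Single genes differed in timing: Pparg stood at 53.4, 80.03, 167 and 484 CPM, Plin1 at 0.314, 102, 617 and 745 CPM, Slc2a4 at 0.196, 1.35, 22.03 and 262 CPM and Hp at 4.39, 32.7, 75.1 and 8689 CPM on days 0, 1, 2 and 7.

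**Figure D5:**
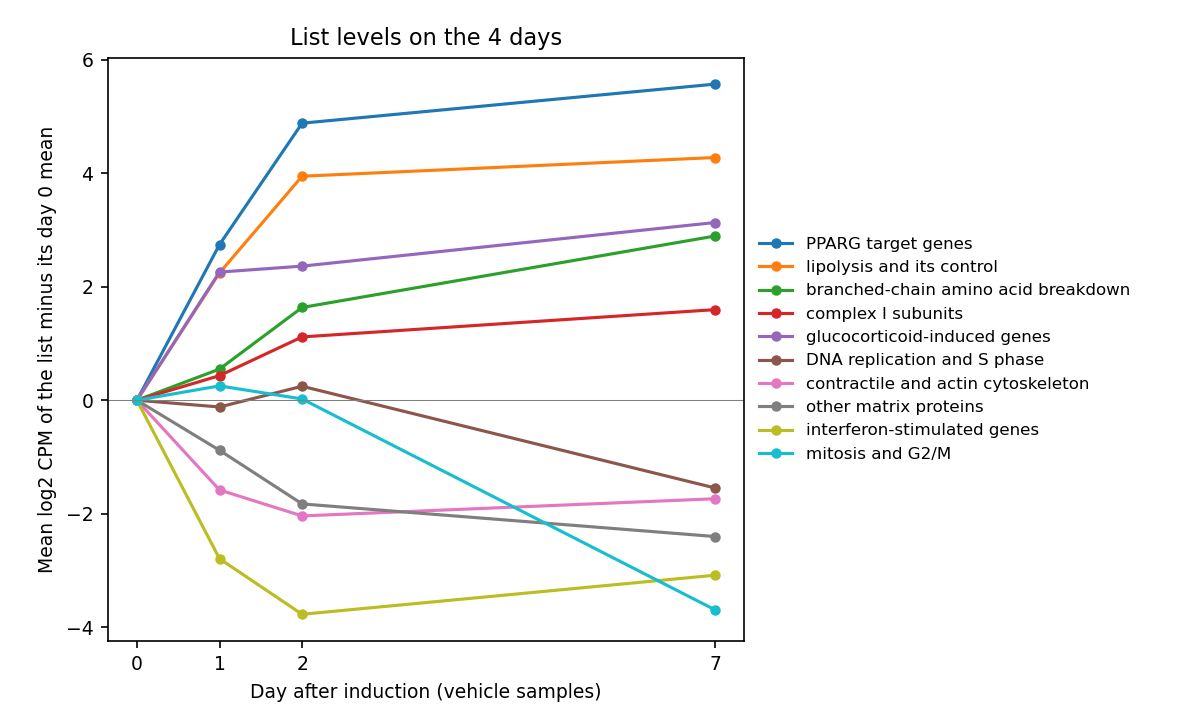
Mean log2 CPM of 10 gene lists in vehicle samples on days 0, 1, 2 and 7, relative to day 0 (means over 3, 3, 3 and 4 samples, lines joining the means, no error drawn). PPARG target and lipolysis genes climb mostly by day 2, interferon and contractile genes are lowest on day 2, and mitosis genes stay near 0 until day 2 and stand at -3.70 on day 7.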

How the data were processed

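RNA was extracted from 3T3-L1 cells, and strand-specific libraries were made with an mRNA kit per the labels (the study speaks of total RNA). By the study's account a genomics centre at UCLA made, sequenced and aligned the libraries. Alignment was to GRCm38 with STAR 2.7.2a, according to the submitters' processing notes. Those name edgeR 3.26.8, while the study's methods name another edgeR version. The deposited table holds counts per gene for 29 samples, which the authors had filtered for low values, and is named as normalized although its values are whole and differ in their totals. The counting program, the use of strand and the exact filter are not given in the sources used here. All 11959 gene identifiers matched GENCODE M21, from which symbols, coordinates and overlaps were taken.

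From these counts, edgeR 4.0.16 in R 4.3.3 fitted a quasi-likelihood model with TMM scaling to all 29 samples in 8 groups, which share 1 estimate of the spread (common biological coefficient of variation 0.0594), and tested day 7 vehicle against day 0 vehicle. Adjusted p values are Benjamini-Hochberg values taken across the whole table. Log2 CPM of single samples, used for list levels and the principal component analysis, took a prior count of 2. The fitted log2 fold changes took edgeR's default prior count. Levels were summarised with Python 3.11.15, pandas 2.3.3, scipy 1.17.1 and matplotlib 3.10.9. Alternatives used limma 3.58.1, DESeq2 1.42.0, other scalings, thresholds, filters and sample sets. The fitting functions were tested on simulated data with known changes. Far fewer genes changed there than in the real comparison, and none by as much as its largest changes. A list's level is the mean log2 CPM of its measured members relative to the day 0 mean. The genes named were the 12 largest called rises and falls without overlap between groups and above the median level, members of 55 lists whatever their change, and the 5 most abundant genes of each day, and some of these are not reported here. The comparison, the lists and the tests were chosen with earlier results of these data known. Promoter windows came from RefSeq.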

Additional observations from a re-analysis of the deposited data

Results flagged for a closer look

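In the group of 4 day 7 samples a value was singled out where the gap between the highest or the lowest sample and its neighbour took over 0.83 of the group's range. Chance gives this for about 1 in 20 groups of 4, and over all genes it held for 1032, or 8.63%. Day 7 replicate 1 was the sample apart in 836 of these, against 69, 54 and 73 for replicates 2, 3 and 4. Among the genes named in the text replicate 1 was highest for Acta2 at 16.1, Adipoq at 1620, Agpat2 at 569, Atf4 at 264, Atp5b at 2783, Bcat2 at 1463, Cdkn2c at 434, Cfd at 4274, Cidec at 4385, Fabp5 at 479, G0s2 at 267, Hilpda at 24.8, Hsd11b1 at 210.5, Ifi27 at 208, Ifit1 at 4.89, Irf9 at 13.4, Isg15 at 2.10, Lamp1 at 770.2, Mrap at 410.2, Orm1 at 307, Psma1 at 501, Retn at 553, Sod1 at 1082, Taldo1 at 547 and Thrsp at 885 CPM. It was lowest for Atg9a at 51.4, Cdkn1b at 70.7, Ebf2 at 6.58, Flna at 285, Fzd4 at 51.9, Itgav at 40.2, Kdm5c at 130.5, Lpin2 at 40.8, Srebf1 at 112, Srebf2 at 161 and Tbc1d1 at 24.6 CPM. Other replicates stood apart for Akt2 at 267 in replicate 4 (highest), Ces1a at 1.18 in replicate 3 (highest), Hmox1 at 330.4 in replicate 3 (lowest), Ndufs1 at 380.4 in replicate 4 (lowest) and Sfrp2 at 0.822 in replicate 4 (highest) CPM. Of the mean log2 levels of lists relative to day 0, replicate 1 stood highest for pyruvate entry and the TCA cycle (2.14), fatty acid oxidation (2.06), complex II and III subunits (2.30) and ATP synthase subunits (1.65). It stood lowest for the H3K4 demethylases and methyltransferases (-0.36) and the brown and beige adipocyte markers (0.42). Replicate 4 stood highest for other matrix proteins (-2.27). Replicate 3 had the highest total, 21433580 counts.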

How the results depend on the processing

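The 4394 higher and 4391 lower genes stayed within 1.5 times these counts under other scalings, tests, filters and sample sets, and became 2132 and 2359 where a fold change over 2 was asked for. Leaving out each sample in turn gave 4351 to 4399 higher and 4340 to 4413 lower genes. Scaling by library totals alone moved the median of all genes to -0.14 on the log2 scale and the share of calls that were higher from 50% to 42.6% (3762 higher, 5064 lower). Same-numbered samples of the 2 days correlated at 0.087, -0.135 and 0.176 in their deviations, so the samples were not taken as pairs, and with the replicate number as a block 4204 genes were higher and 4373 lower. The rise in the share of the most abundant genes was 2.90 points for the top 50 and 2.89 for the top 100, against 2.12 for the top 10.

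Of 50 list medians, 31 above 0, 2 changed sign. The median of cyclin D, CDK and CDK inhibitors (0.025) was -0.044 under upper-quartile scaling, -0.119 by library totals, -0.080 under quantile normalization, -0.037 with the replicate block, -0.189 without the 25% of genes of lowest level, and -0.018 to 0.069 over samples left out (-0.0092 without day 0 replicate 1). That of the H3K4 demethylases and methyltransferases (0.068) was -0.0037, -0.072, -0.053, -0.0083 and -0.047 in the same order, and -0.0037 to 0.083 over samples left out. No named gene changed sign with a call. Without the 25% of genes of lowest level the medians of lipolysis, mitosis and interferon-stimulated genes were 3.29, -3.39 and -1.19, and no other list median moved by over 1.5-fold in any setting. Calls of Ebf2, Ifi27, Irs2, Kdm5a, Tcf7l1 and Atp5g2 changed in 9, 8, 8, 7, 7 and 6 of the settings other than thresholds. The causes were not tested. Genes with few counts on 1 of the days have wide limits on the size of their change, as the counting interval of Map7d2 shows.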

Other observations

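Gene lists that stand outside the fat cell programme are given here as values with no explanation, to be read against 36.7% of all genes called in each direction. Genes against oxidative damage were mostly higher, at 24 of 38, with 7 lower and a median log2 change of 1.04. Tkt and Taldo1, which with G6pdx and Pgd make NADPH and pentoses, rose by 3.08 and 3.00, and Sod1 and the mitochondrial Sod2 rose by 2.87 and 2.18. Prdx4 and Gpx8, peroxidases of the endoplasmic reticulum, fell by 2.52 and 2.16. The classic NRF2 target Nqo1 fell by 1.04 and Hmox1, at 0.25, was not called, so the list did not move as one. Of 34 proteasome subunit genes 28 rose and 0 fell, with a median of 0.64. Their changes lay between -0.17 and 1.07 but for Psma6 and Psma1, which rose by 1.90 and 2.89. Psma1 stood at 58.05, 59.8 and 56.1 CPM at day 0 and at 501, 402, 403 and 415 CPM at day 7. Of 39 genes of lysosomes and autophagy 14 rose and 19 fell, with a median of -0.26. The hydrolase genes Ctsk and Gla fell by 3.35 and 2.73, and Lamp1 and Lamp2 of the lysosomal membrane by 1.18 and 1.596. Autophagy genes such as Atg9a and Gabarapl1 rose by 1.13 and 1.10, as did Tfeb, a transcription factor of lysosomal genes, by 2.80. Among genes of the unfolded protein and amino acid responses 18 of 33 rose and 6 fell: Xbp1, a regulator of secretory capacity, rose by 2.85, and the folate enzyme gene Mthfd2 rose by 3.34, while Atf4 (-0.22) was not called.

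Clock genes rose at 12 of 19, with 2 lower (1 without day 7 replicate 1). Nr1d1 stood at 25.1, 19.5 and 22.8 CPM at day 0 and at 90.4, 87.6, 89.9 and 98.3 CPM at day 7, and Per2 rose by 1.79. Arntl (0.26) was not called, and the clock phase at sampling is not given in the sources used here. Imprinted genes rose at 3 of 17 and fell at 12, and Slc38a4, Igf2r and Peg3 fell by 4.26, 2.26 and 1.58. Chemokine and inflammatory genes fell at 13 of 21 and rose at 5, and their summed level was 4679 to 4784 CPM at day 0 and 15770 to 18920 CPM at day 7. Most of the later sum was Hp, at 11032, 7754, 7389 and 8581 CPM, and C3, at 6799, 7488, 7386 and 7186 CPM. Il1rl1, the IL-33 receptor gene, fell by 6.87 and Cxcl12, a chemokine gene of stromal cells, by 3.80, while Nfkbia, an inhibitor of NF-κB, rose by 2.63 and C4b by 3.96. Of the writers and erasers of histone H3 lysine 4 methylation 5 of 19 rose and 6 fell, both below the share over all genes. Among the genes whose products KDM5-C70 inhibits, Kdm5b fell by 1.06, and Kdm5a (-0.29) and Kdm5c (-0.06) were not called, although Kdm5a was called lower in 7 of the alternative settings.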
